A study of Mus musculus with 12 samples.

Results

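The Hox cluster genes of the deposited mouse count table are described here in 12 brain libraries. The members were all rows whose gene name is Hox, a cluster letter from a to d and a number, which gave 39 of 43346 genes, with genes at 0 reads included. Cluster A on chromosome 6 held 11 members, cluster B on chromosome 11 held 10, cluster C on chromosome 15 held 9 and cluster D on chromosome 2 held 9. The choice used the names only and no measured value.

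The 12 libraries fall into 3 groups of 4, and each was made from a slice of brain that, by its label, held hippocampus and cortex. Young libraries (1, 3, 4 and 5) came from untreated mice of 3 months with the strain label C57BL/6. Old libraries (7, 8, 9 and 10) came from mice of 23 months with the strain label C57BL/6;SJL-Tg whose drinking water held 0.1% PEG as vehicle since the age of 9 months. Old_CP2 libraries (11, 12, 13 and 15) came from mice of the same age and strain label given 25 mg per kg per day of CP2, which inhibits mitochondrial complex I, since the age of 9 months. For these libraries 0.1% PEG is recorded as well. All are labelled wild type, whereas the design text of the series speaks of a transgenic APP/PS1 line beside non-transgenic mice. Age, strain label and vehicle differ together between Young and Old and cannot be told apart. The labels do not say that each library came from a separate animal, so p-values measure only the spread between these libraries. The number in a library's name is the one in its title and sets no order.

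Hox genes encode homeodomain transcription factors that give cells along the body axis their position. Genes with the same number in different clusters are paralogues. In the embryo, and in part in the adult, genes with low numbers at one end of a cluster are used from the hindbrain backward, and genes with higher numbers mark the spinal cord and trunk. Forebrain and midbrain lie in front of the Hox domain. Hox reads in a slice of cortex and hippocampus are therefore a check for tissue from that domain. Few Hox reads do not show that all tissue from behind the midbrain is absent.

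Promoter sequences of 5 members are shown because these genes stand for the patterns described here. Hoxa2, Hoxb4 and Hoxc4 had most of their reads in the same pair of old libraries, Hoxd1 had reads in all 12 libraries, and Hoxb1 had none. The sequences are RefSeq promoter windows on GRCm38.p6, 250 bases before to 50 bases after an annotated start, printed 5′ to 3′ on the gene's strand. Capitals mark the letters TGATNNAT, or that motif read on the other strand, a site pattern of Hox and Pbx proteins.
Hoxa2: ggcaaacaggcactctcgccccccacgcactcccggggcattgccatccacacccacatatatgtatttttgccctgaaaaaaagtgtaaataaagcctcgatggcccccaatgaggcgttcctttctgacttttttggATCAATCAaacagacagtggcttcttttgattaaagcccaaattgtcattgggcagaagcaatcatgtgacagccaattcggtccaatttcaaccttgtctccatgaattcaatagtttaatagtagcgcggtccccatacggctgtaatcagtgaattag
Hoxb4: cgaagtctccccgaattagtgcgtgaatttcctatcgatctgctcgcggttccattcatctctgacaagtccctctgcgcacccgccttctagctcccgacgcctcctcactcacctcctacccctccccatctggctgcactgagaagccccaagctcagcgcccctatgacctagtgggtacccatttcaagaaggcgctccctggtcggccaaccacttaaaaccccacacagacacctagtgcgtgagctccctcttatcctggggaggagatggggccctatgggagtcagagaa
Hoxc4: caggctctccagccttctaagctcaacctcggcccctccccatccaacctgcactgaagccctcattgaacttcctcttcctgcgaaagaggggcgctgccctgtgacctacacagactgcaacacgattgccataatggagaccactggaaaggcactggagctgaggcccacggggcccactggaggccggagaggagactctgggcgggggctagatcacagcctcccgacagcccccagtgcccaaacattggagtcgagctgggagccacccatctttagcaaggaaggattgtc
Hoxd1: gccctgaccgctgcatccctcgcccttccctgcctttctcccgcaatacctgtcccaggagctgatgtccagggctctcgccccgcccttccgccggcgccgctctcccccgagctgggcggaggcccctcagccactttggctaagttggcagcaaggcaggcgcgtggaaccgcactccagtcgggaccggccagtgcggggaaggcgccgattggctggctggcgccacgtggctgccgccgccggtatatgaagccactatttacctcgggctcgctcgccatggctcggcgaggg
Hoxb1: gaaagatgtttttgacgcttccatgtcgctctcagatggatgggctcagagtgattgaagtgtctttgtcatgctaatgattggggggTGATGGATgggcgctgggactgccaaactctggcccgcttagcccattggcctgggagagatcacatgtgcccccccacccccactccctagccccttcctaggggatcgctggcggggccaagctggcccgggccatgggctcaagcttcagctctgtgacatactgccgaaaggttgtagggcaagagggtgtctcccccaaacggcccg
The Hoxa2 window lies at chr6:52164782-52165081 (- strand), and its motif begins at position -111 from the start. The Hoxb4 window lies at chr11:96318017-96318316 (+ strand), that of Hoxc4 at chr15:103034145-103034444 (+ strand) and that of Hoxd1 at chr2:74762730-74763029 (+ strand). The Hoxb1 window lies at chr11:96365508-96365807 (+ strand), with its motif at position -162. RefSeq windows were matched for 22 of the 39 members, 24 windows in all. The motif TGATNNAT, searched on both strands, occurred in 4 of these 24 windows (16.67%) and in 8.846% of 32851 promoters. TATAAA, also on both strands, occurred in 4 of 24 (16.67%) against 13.62%. The median number of CG pairs was 14.5 in the Hox windows and 7 in all windows. A letter match is a description of these windows only.

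Hox reads were few in every library and came mostly from 2 of the 12. Counts summed to 70548781 to 99449665 per library, and all 39 members together had 1320 reads over the 12 libraries. Old 7 held 516 of these (39.09%) and Old_CP2 15 held 407 (30.83%). The other 10 libraries held 24 to 61 each. The Young libraries had 31, 34, 34 and 24 Hox reads. Old 8, Old 9 and Old 10 had 61, 25 and 48, and Old_CP2 11, 12 and 13 had 53, 49 and 38. Old 7 and Old_CP2 15 thus stood apart from the other libraries of their own groups as well as from Young. Members with at least 1 read numbered 21 in Old 7, 21 in Old_CP2 15 and 5 to 15 in the others.

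**Figure D1:**
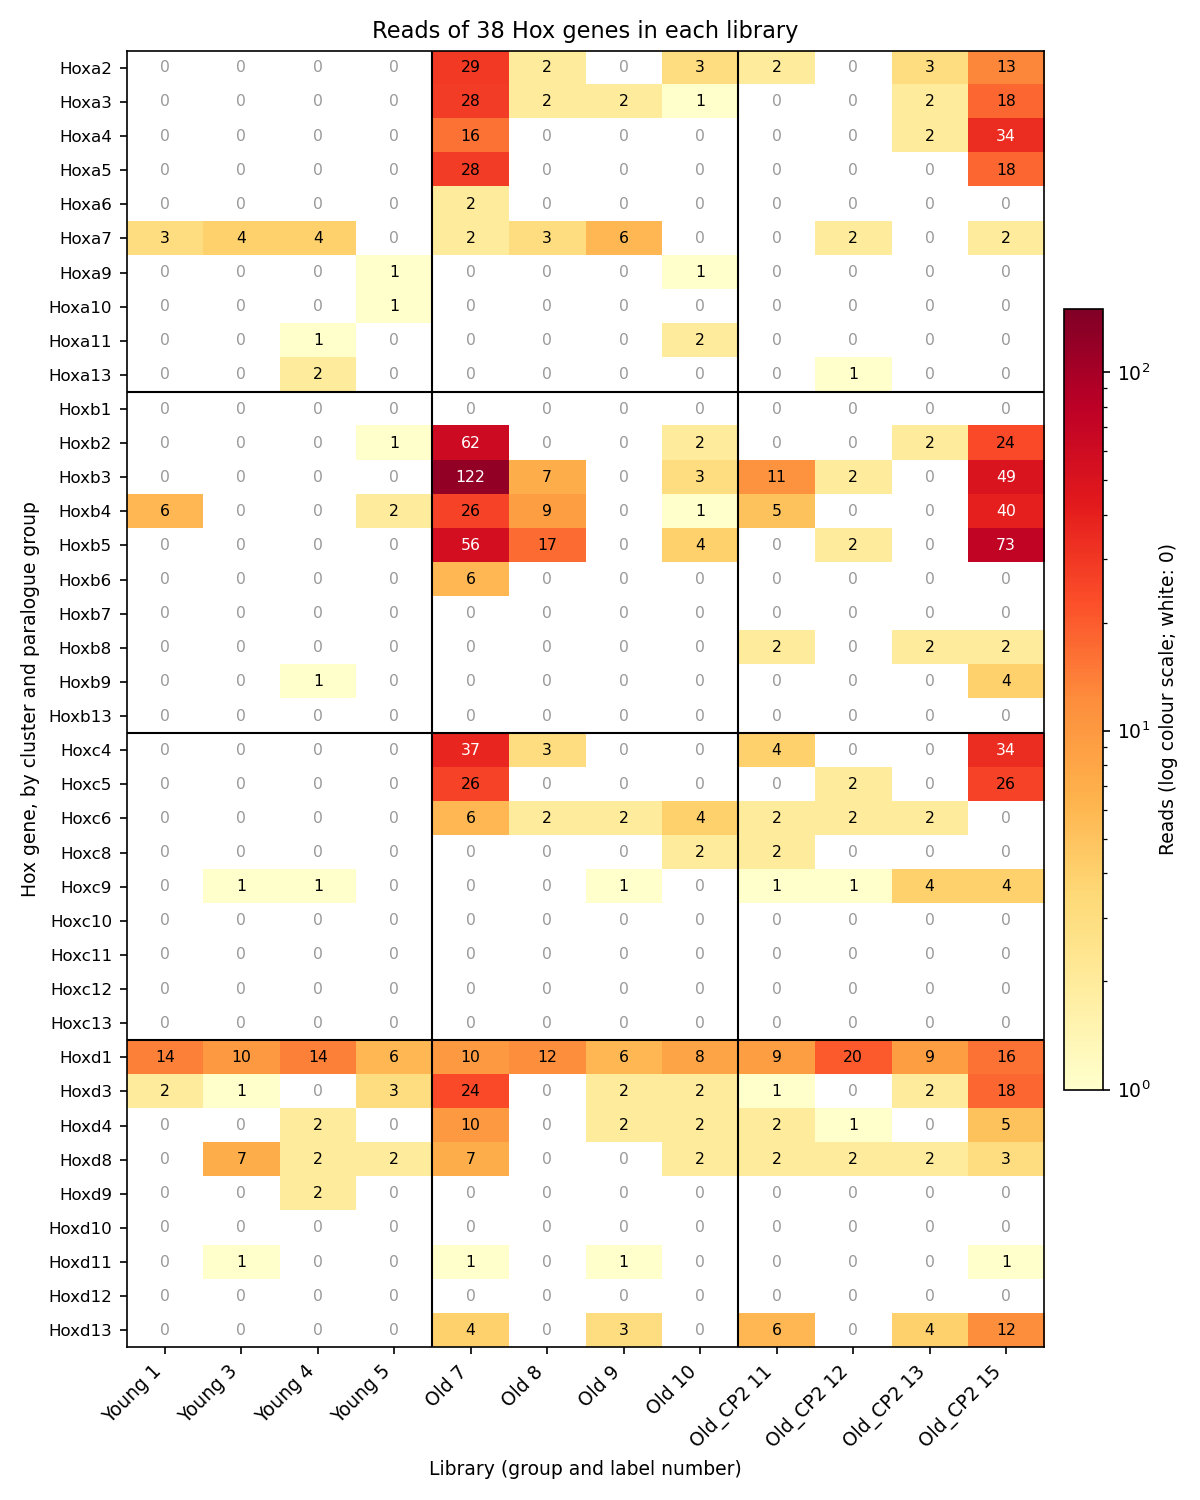
Reads of 38 Hox genes (rows, by cluster and paralogue number) in each of the 12 libraries (columns, by group); the number in each cell is the read count and the colour is on a log scale, with white for 0. The columns of Old 7 and Old_CP2 15 hold the high values, in genes numbered 2 to 5, while Hoxd1 has reads in all columns.

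The summed level of all members was 0.370 ± 0.0722 normalised CPM (SD, n = 4) in Young, 1.855 ± 2.58 in Old and 1.63 ± 2.28 in Old_CP2. CPM here is a count relative to the library's total after adjustment for composition. The SD exceeded the mean in both old groups. Without Old 7 the Old mean was 0.573, and without Old_CP2 15 the Old_CP2 mean was 0.488. In bulk tissue, fewer cells of a type and less RNA per cell cannot be told apart.

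By number of reads over the 12 libraries, 9 members had none, 11 had 1 to 9 and 19 had 10 or more. The 9 at 0 were Hoxb1, Hoxb7, Hoxb13, Hoxc10, Hoxc11, Hoxc12, Hoxc13, Hoxd10 and Hoxd12. A count of 0 in a library allows up to 3 reads, which is 0.0306 to 0.0441 CPM at these depths. Many values in the table are even (19688 values equal 2 against 13176 that equal 1), and 95 of the 143 Hox values above 0 are even. Both mates of a pair may therefore have been counted as separate reads, in which case limits and counting intervals cover less than the full counting error.

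Members were then read by paralogue number, with numbers 2 to 5 (12 members) and numbers 6 to 13 (24 members) as sets. These sets were chosen after the values had been seen, so their values are a description with no test. Numbers 2 to 5 held 940 of the 1320 reads, and 816 of the 940 (86.81%) were in Old 7 and Old_CP2 15. The other 6 old libraries held 107 and Young held 17. Per library, the set had 8, 1, 2 and 6 reads in Young, 464, 40, 6 and 18 in Old 7, 8, 9 and 10, and 25, 7, 11 and 352 in Old_CP2 11, 12, 13 and 15. The level of the set was 5.13 CPM in Old 7 and 4.36 CPM in Old_CP2 15, against 0.0111 to 0.104 in Young. Old 9 at 0.0744 CPM and Old_CP2 12 at 0.0713 CPM lay inside the range of Young, and Old 8 at 0.588 CPM was the next highest after the 2 libraries named. This set made up 89.92% of the Hox reads of Old 7 and 86.49% of those of Old_CP2 15, and 2.94% to 65.57% of those of the other libraries.

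**Figure D2:**
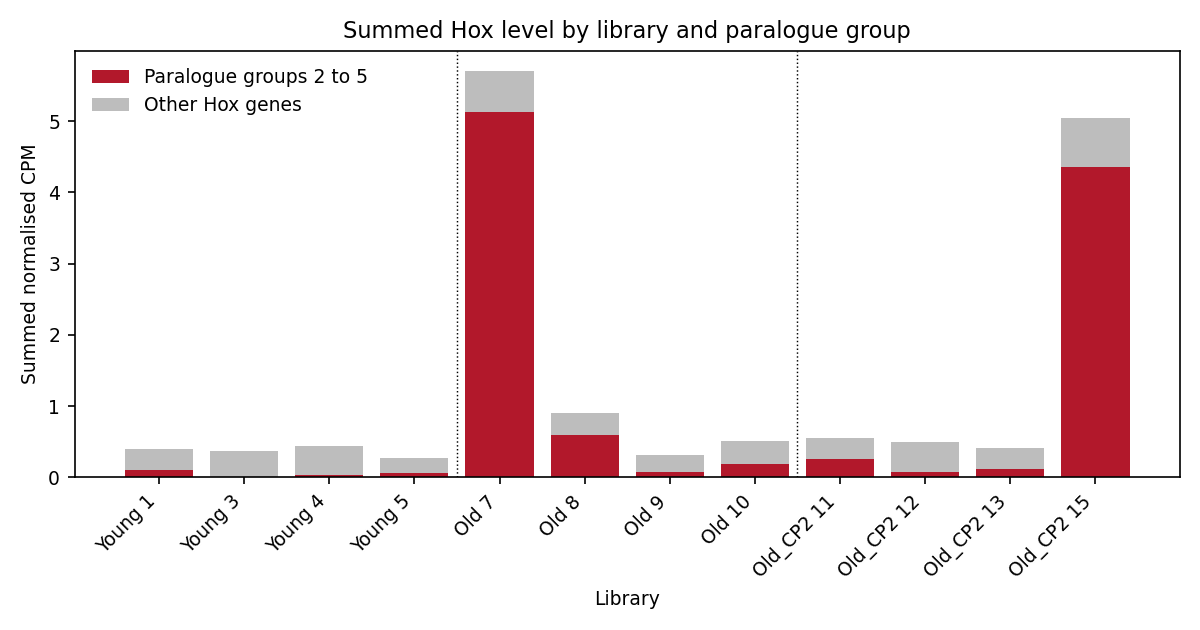
Summed normalised CPM of the Hox genes in each library (bars), stacked as paralogue numbers 2 to 5 (red) and all other Hox genes (grey). The red part reaches 5.13 CPM in Old 7 and 4.36 CPM in Old_CP2 15 and is 0.588 CPM or less in the other 10 libraries.

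All 12 members numbered 2 to 5 had their 2 highest libraries in Old 7 and Old_CP2 15. Old 7 was the higher for 7 of them and Old_CP2 15 for 5. Among all 28784 genes with 10 or more reads, 11.99% were highest in Old 7 and 8.856% in Old_CP2 15. Of the 12, 8 had 0 reads in all 4 Young libraries: Hoxa2, Hoxa3, Hoxa4, Hoxa5, Hoxb3, Hoxb5, Hoxc4 and Hoxc5.

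Hoxb3 (ENSMUSG00000048763, chr11:96323326-96347930), a regulator of hindbrain segment identity, had the most reads of any member, 194. Gene positions here are those of the deposited table, on mm10. Hoxb3 had 0 reads in every Young library, 122, 7, 0 and 3 in Old 7, 8, 9 and 10, and 11, 2, 0 and 49 in Old_CP2 11, 12, 13 and 15. Old 7 and Old_CP2 15 were the highest, and Old 9 and Old_CP2 13 were at 0 like Young, so the groups overlapped. The Old reads amounted to a level 44.3-fold higher than that of 3 reads over the Young group, taken as its limit. Of the 132 Old reads, 122 were from 1 library. Without Old 7 this value was 4.61-fold. Such values allow for the 0 reads of Young only and leave out the counting error of the Old reads and their spread between libraries.

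Hoxb5 (ENSMUSG00000038700, chr11:96303336-96306121) had 0 reads in Young, 56, 17, 0 and 4 in the Old libraries, and 0, 2, 0 and 73 in Old_CP2. The level in Old was 25.85-fold higher than that limit in Young. The ratio of Old_CP2 to Old was 0.884 with a 95% counting interval of 0.634 to 1.23. Old 7 held 56 of the 77 Old reads and Old_CP2 15 held 73 of the 75 Old_CP2 reads, and a counting interval leaves out this spread between libraries. Without Old 7 the level in Old was 9.68-fold higher than that limit. The ratio of Old_CP2 to Old was 2.36 without Old 7 (1.44 to 4.03) and 0.0302 without Old_CP2 15 (0.00359 to 0.113). With both left out it was 0.0807 (0.00917 to 0.330), from 2 reads against 21, of which 17 were from Old 8. Hoxb5 was the member with the most reads in Old 8 and the highest in Old_CP2 15, whereas Old 9, Old_CP2 11 and Old_CP2 13 had none.

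Hoxb2 (ENSMUSG00000075588, chr11:96350525-96354012), which acts in the identity of hindbrain segments and their motor neurons, had 0, 0, 0 and 1 reads in Young. It had 62, 0, 0 and 2 in Old, and 0, 0, 2 and 24 in Old_CP2. Nearly all of its reads came from the same 2 libraries, and the ratio of Old to Young, 64.5 with a counting interval of 11.2 to 2585, rests on the 1 Young read and on Old 7. Without Old 7 it was 2.77 (0.144 to 163).

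Hoxb4 (ENSMUSG00000038692, chr11:96318267-96321638) differed from its neighbours in having reads in 2 Young libraries. It had 6, 0, 0 and 2 reads in Young, 26, 9, 0 and 1 in Old, and 5, 0, 0 and 40 in Old_CP2. Young 1 was above 2 of the 4 Old libraries, so the groups overlapped. The ratio of Old to Young was 4.53 (counting interval 2.07 to 11.3), and 1.73 without Old 7 (0.614 to 5.04), an interval that includes 1.

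Hoxc4 (ENSMUSG00000075394, chr15:103018934-103036852) is the lowest-numbered gene of cluster C. It had 0 reads in Young, 37, 3, 0 and 0 in Old, and 4, 0, 0 and 34 in Old_CP2. Only 4 of the 8 old libraries held a read, and the 2 high libraries were nearly equal, at 0.409 CPM in Old 7 and 0.421 CPM in Old_CP2 15.

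Hoxd3 (ENSMUSG00000079277, chr2:74711927-74748442) had reads in 3 of 4 Young libraries. Its reads were 2, 1, 0 and 3 in Young, 24, 0, 2 and 2 in Old, and 1, 0, 2 and 18 in Old_CP2. Outside Old 7 and Old_CP2 15, its old values of 0 to 2 lay within the Young range of 0 to 3.

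Hoxd1 gave another pattern. The gene (ENSMUSG00000042448, chr2:74762980-74765142) had 14, 10, 14 and 6 reads in Young, 10, 12, 6 and 8 in Old, and 9, 20, 9 and 16 in Old_CP2. It was the one member with reads in all 12 libraries, and neither Old 7 nor Old_CP2 15 was its highest. The ranges of the 3 groups overlapped.

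**Figure D3:**
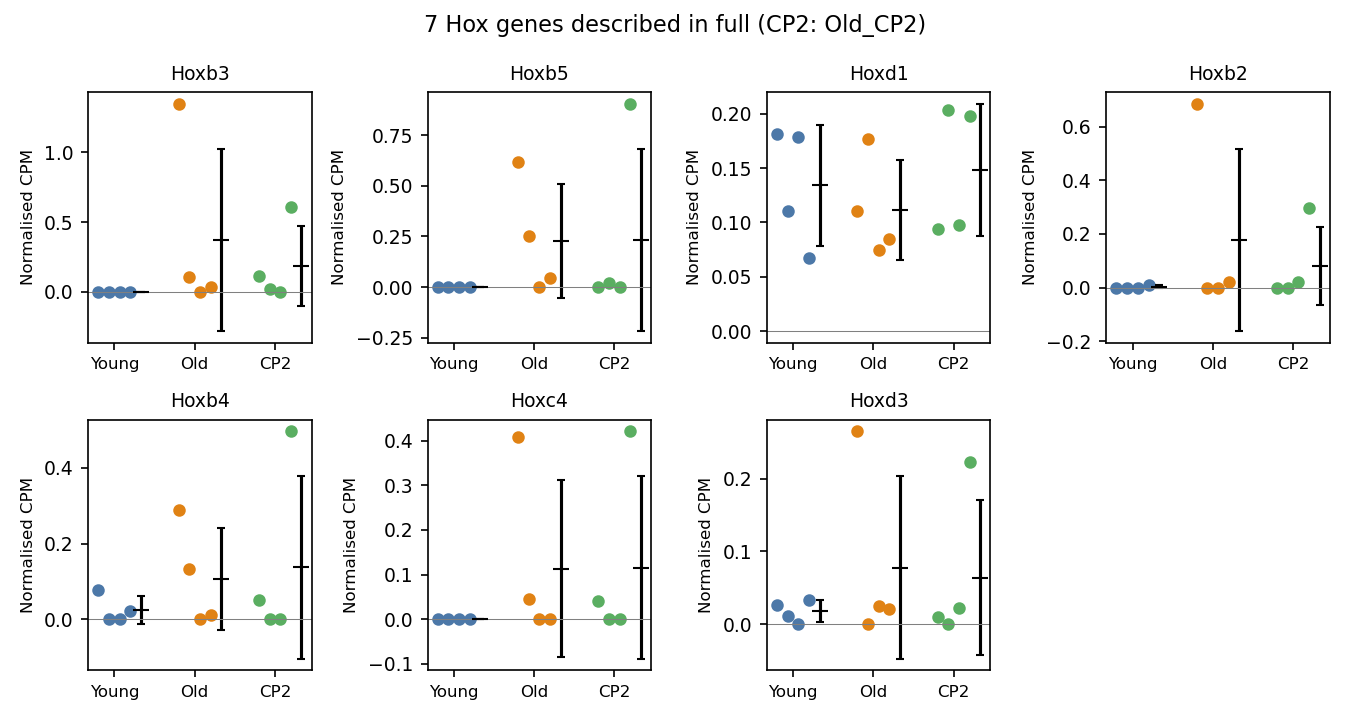
Normalised CPM of 7 of the 8 Hox genes with the most reads, 1 panel each; points are libraries in the order of their label numbers, and the black mark and bar give the mean ± SD of 4 libraries. In 6 panels 1 Old point (Old 7) and 1 Old_CP2 point (Old_CP2 15) lie above the rest, while the points of Hoxd1 are mixed between groups.

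Only 2 members, Hoxd1 among them, had enough reads in enough libraries to enter the test across genes, which edgeR's filter limited to 22553 genes. In Old against Young, 0 of these 2 members were called at an adjusted p under 0.05, where 6.7% of all tested genes were. In Old_CP2 against Old 0 of 2 were called (0.0443% of all genes), and in Old_CP2 against Young 0 of 2 (7.57%). At an unadjusted p under 0.05 the count was also 0 in each comparison with edgeR. For Hoxd1 the log2 difference of Old minus Young was -0.27 ± 0.446 (SE; edgeR quasi-likelihood test, adjusted p = 0.790), and the levels were 0.112 ± 0.0458 CPM in Old and 0.134 ± 0.0556 in Young (SD, n = 4). Its Old_CP2 minus Old difference was 0.42 ± 0.438 (adjusted p = 0.900), with 0.148 ± 0.0609 CPM in Old_CP2. Depth limits these comparisons, since Hoxd1 had no more than 20 reads in any library.

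With no filter on low counts, 30 members could be fitted, and edgeR again called 0 of them in each comparison. All genes with a read were called at 3.98% in Old against Young, 0.0501% in Old_CP2 against Old and 4.53% in Old_CP2 against Young in that fit. At an unadjusted p under 0.05 there were 10, 2 and 10 of the 30 members, where 15.8%, 5.43% and 17.1% of all genes with a read were. The smallest adjusted p in Old against Young was 0.0589 (Hoxc6), followed by 0.104 (Hoxb3) and 0.116 (Hoxa2). DESeq2 gave an adjusted p for 5 members in Old against Young and called 1 of them, Hoxb3 (adjusted p = 0.0388), where it called 10.5% of all genes. With Old 7 and Old_CP2 15 left out, DESeq2 gave no adjusted p to any member in this comparison, so no call could be made, and the unadjusted p of Hoxb3 was 0.0391. With all 12 libraries, DESeq2 called 0 members in Old_CP2 against Old (0.454% of all genes) and 0 in Old_CP2 against Young (10.8%).

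Groups did not overlap for Hoxa3 and Hoxc6 in Old against Young, 2 of the 30 members with a read, where the same held for 9.47% of all genes with a read. It held for Hoxc6 alone in Old_CP2 against Old (2.81% of all genes) and for no member in Old_CP2 against Young (11.2%). Hoxa3 had 0 reads in Young, 28, 2, 2 and 1 in Old, and 0, 0, 2 and 18 in Old_CP2. Hoxc6 had 0 reads in Young, 6, 2, 2 and 4 in Old, and 2, 2, 2 and 0 in Old_CP2. Apart from the 28 reads of Hoxa3 in Old 7, the separation of Old from Young in these genes rests on 1 to 6 reads per library. For Hoxc6, the counts of Old and Old_CP2 met at 2 reads. Their separation lies only in library size, since 2 reads are 0.0248 CPM in Old 9 and 0.0217 CPM in Old_CP2 13.

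The other members numbered 2 to 5 followed Old 7 and Old_CP2 15 as well. Hoxa2, a gene of anterior hindbrain and branchial arch identity, had 0 reads in Young, 29, 2, 0 and 3 in Old, and 2, 0, 3 and 13 in Old_CP2. Hoxa4 had 16 reads in Old 7, 34 in Old_CP2 15, 2 in Old_CP2 13 and 0 elsewhere. Hoxa5, which in the brainstem serves the circuit for breathing, had 28 reads in Old 7, 18 in Old_CP2 15 and 0 in the other 10 libraries. It was thus the member with no read outside that pair among those with 10 or more reads. Hoxc5 had 26 reads in each of the 2 libraries and 2 in Old_CP2 12. Hoxd4 had 10 in Old 7, 5 in Old_CP2 15 and 0 to 2 elsewhere, 1 Young library included.

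Members numbered 6 to 13 had 155 reads in all, and 8 of the 24 had none. Per library the set had 3, 13, 13 and 4 reads in Young, 28, 5, 13 and 11 in Old, and 15, 8, 14 and 28 in Old_CP2. Old 7 and Old_CP2 15 were again the 2 highest, but at 0.310 and 0.347 CPM they lay far closer to the highest Young library, at 0.166 CPM, than in the set numbered 2 to 5. No member of this set had more than 12 reads in a library.

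Among these genes Hoxa7 had 3, 4, 4 and 0 reads in Young, 2, 3, 6 and 0 in Old, and 0, 2, 0 and 2 in Old_CP2. Hoxd8 had 0, 7, 2 and 2 in Young, 7, 0, 0 and 2 in Old, and 2, 2, 2 and 3 in Old_CP2. Both had reads in 3 Young libraries, and the highest library of Hoxa7 was Old 9. For Hoxd8, Young 3 and Old 7 had the same number of reads, and Old_CP2 15 was the highest of its group by 1 read. Hoxb6, the next gene after Hoxb5, had 6 reads in Old 7 and 0 in the other 11 libraries, and Hoxa6 had 2 reads in Old 7 and 0 elsewhere. The fall from number 5 to number 6 was therefore steep within Old 7, from 56 reads of Hoxb5 to 6 of Hoxb6 and from 28 of Hoxa5 to 2 of Hoxa6. In Old_CP2 15, Hoxb5 had 73 reads and Hoxb6 had 0.

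Hoxd13, a gene of the hind end of the body axis and the digits, was the exception among high numbers. It had 0 reads in Young, 4, 0, 3 and 0 in Old, and 6, 0, 4 and 12 in Old_CP2. The ratio of Old_CP2 to Old was 2.85 (counting interval 1.18 to 7.90), and 12 of the 22 Old_CP2 reads were from Old_CP2 15. Without that library the ratio was 1.66 (0.571 to 5.14), without Old 7 it was 4.85 (1.46 to 25.3), and without both it was 2.82 (0.727 to 15.97). Hoxd12 and Hoxd10 next to it had 0 reads in all 12 libraries, and Hoxd11 had 0 or 1 in each.

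Per length of transcript, the order of members could be compared within a library. Levels per kilobase in Old 7 were highest for Hoxb3 at 0.317 CPM per kb, Hoxb5 at 0.222, Hoxb2 at 0.1965, Hoxa2 at 0.191 and Hoxa5 at 0.165. In Old_CP2 15 they were highest for Hoxb5 at 0.325 CPM per kb, Hoxa4 at 0.264, Hoxb4 at 0.193 and Hoxc4 at 0.164, while Hoxb3 was at 0.143. The 2 libraries thus ordered the members differently. The 5 members numbered 2 or 3 were higher per kilobase in Old 7, as were Hoxa5 (0.165 against 0.119) and Hoxd4 (0.0375 against 0.0210), while Hoxa4, Hoxb4 and Hoxb5 were higher in Old_CP2 15. Hoxc4 and Hoxc5 were nearly equal in both. Hoxb2 was at 0.1965 CPM per kb in Old 7 and 0.0853 in Old_CP2 15, and Hoxa4 was at 0.111 and 0.264. These are single libraries of different groups, so no test was made of the difference. In cluster D, Hoxd3 was at 0.0633 and 0.0532 CPM per kb and Hoxd1 at 0.0594 and 0.1065, the latter above Hoxa2 (0.0959) and Hoxb2 in Old_CP2 15. Hoxd13 was at 0.0178 CPM per kb in Old 7 and 0.0599 in Old_CP2 15, where it lay above Hoxd3.

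**Figure D4:**
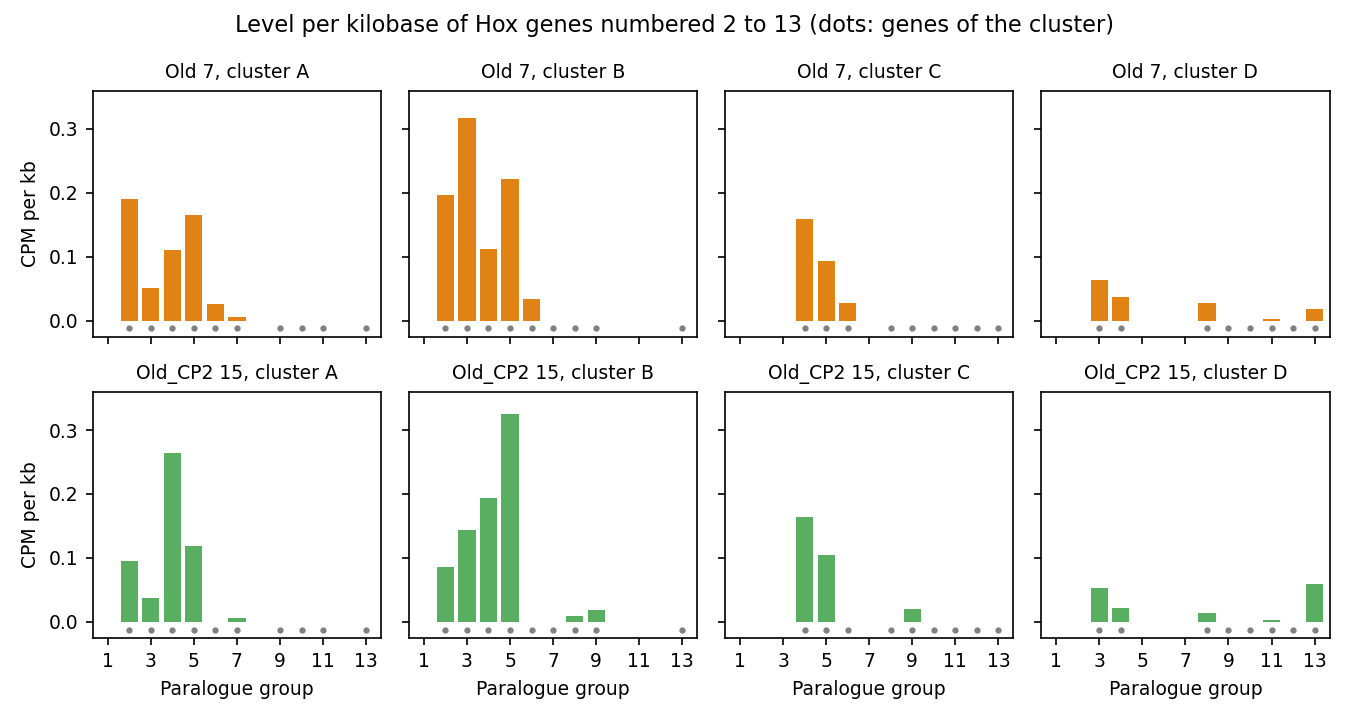
Level of each Hox gene numbered 2 to 13 in CPM per kilobase of its deposited length (vertical axis) against its paralogue number (horizontal axis), by cluster, in Old 7 (top) and Old_CP2 15 (bottom); dots under the bars mark the genes each cluster holds. In clusters A, B and C the tallest bars stand at numbers 2 to 5, bars are 0.06 CPM per kb or less from number 6 on, and the highest bar is Hoxb3 in Old 7 and Hoxb5 in Old_CP2 15. In cluster D the tallest bar is Hoxd3 in Old 7 (0.0633 CPM per kb) and Hoxd13 in Old_CP2 15 (0.0599, against 0.0532 for Hoxd3).

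Some of these reads can belong to other transcripts. Exons of 16 members overlap those of another gene in GENCODE vM21, and 10 overlap a gene on the opposite strand, which a kit that does not mark strand cannot separate. Hoxb3 shares 2250 exon bases and Hoxb2 953 with the antisense gene Hoxb3os, so their counts are uncertain. Hoxb5 shares 100 bases with Hoxb5os, and Hoxd3 and Hoxd4 share 388 bases with each other. Hoxd3 also shares 2225 and Hoxd4 1154 exon bases with Gm28230, a gene on the same strand with 49 reads, so the counts of these 2 members are uncertain too. Hoxb4, Hoxc4, Hoxa2 and Hoxa5 have no antisense overlap, and their reads were high in the same 2 libraries. Hoxa2, however, shares 267 exon bases with Gm28308, a gene on the same strand with 14 reads.

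The noncoding transcripts of the clusters gave the same 2 libraries. Hoxb3os had 0 CPM in Young, 1.66, 0.0882, 0 and 0.0425 in Old, and 0.0833, 0.0407, 0.0217 and 0.682 in Old_CP2. Hoxb5os had reads in Old 7 (0.0774 CPM) and Old_CP2 15 (0.124 CPM) and none in the other 10 libraries. Hoxb3os shares 2250 exon bases with Hoxb3 and 953 with Hoxb2, and Hoxb5os shares 100 with Hoxb5. Without strand, reads of these 2 transcripts can belong to those members, so their pattern is not separate from that of the members. Of the 6 noncoding transcripts with 10 or more reads, 4 were highest in Old 7 and 2 in Old_CP2 15. Hotairm1 of cluster A and Haglr, next to Hoxd1, had reads in all 12 libraries, as Hoxd1 had, at 0.153 to 0.694 and 0.0833 to 0.365 CPM. These 2 were the noncoding transcripts that could be tested, and neither was called in any comparison.

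The genes that flank the clusters differed from the members in 1 respect. Of 9 tested neighbours, 4 rose in Old against Young (Evx1, Evx2, Skap1 and Skap2) and 0 fell, where 3.96% of all tested genes rose and 2.74% fell, with a median log2 difference of 0.112 against -0.00342 over all genes. Evx2, a homeobox gene beside Hoxd13, had 0 CPM in every Young library, 0.719, 0.147, 1.02 and 0.170 in Old, and 0.593, 0.479, 0.119 and 1.00 in Old_CP2. All 8 old libraries held reads, and Old 9, where members numbered 2 to 5 were near the Young level, was the highest. Evx1, beside Hoxa13, had 0 CPM in every Young library, 0.520, 0.0588, 0.608 and 0.106 in Old, and 0.541, 0.295, 0.1735 and 0.706 in Old_CP2. Against 3 reads over the Young group, Evx2 was 58.1-fold and Evx1 36.9-fold higher in Old, leaving out the counting error of the Old reads. Both were called in Old against Young (edgeR quasi-likelihood test, adjusted p = 0.0120 and 0.0148). Both calls held in Old against Young with Old 7 and Old_CP2 15 left out. The calls of Skap1 and Skap2 were lost without Young 1, Young 4 or Old 8, and that of Skap2 also without Young 3 or Old 7 (adjusted p = 0.0514 to 0.0796). In Old_CP2 against Old, 0 of the 9 neighbours were called.

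Proteins that bind DNA with Hox factors and those that set Hox expression were measured too. Over all tested genes, 3.96% rose and 2.74% fell in Old against Young, and 3.24% and 2.08% with Old 7 and Old_CP2 15 left out. Of the 9 cofactors of the Pbx, Meis and Pknox families, 1 was called in Old against Young, Pbx3, with a log2 difference of 0.43 ± 0.115 (SE; edgeR, adjusted p = 0.0439). Without Old 7 its adjusted p was 0.111, and it also lost its call without Young 1, Young 4, Young 5, Old 9, Old 10 or Old_CP2 12 (highest adjusted p = 0.122). Meis1, which was not called, was at 10.3 CPM in Old 7, 6.38 in Old_CP2 15 and 4.14 to 5.11 in the other 10 libraries. It was the only 1 of the 9 cofactors that was highest in Old 7, and 2 were highest in Old_CP2 15. Of 18 Polycomb and trithorax regulators, which keep Hox genes silent or active, 4 rose (Ezh1, Cbx7, Cbx2 and Bmi1) and 0 fell, and 3 and 0 without those 2 libraries. Ezh1, a histone methyltransferase, rose by 0.20 ± 0.0431 on the log2 scale (adjusted p = 0.0156) and Cbx7 by 0.42 ± 0.0933 (adjusted p = 0.0192). The call of Cbx2 was lost without Young 1, 3 or 4 or without Old 8, 9 or 10 (adjusted p of up to 0.0926). That of Bmi1 was lost without Young 1, 3 or 4, any of the 4 Old libraries, Old_CP2 11 or Old_CP2 13, and with only the 2 groups fitted (up to 0.0883). Of 16 tested genes of retinoic acid, the signal that induces Hox genes in the embryo, 2 rose and 3 fell in Old against Young, and 1 and 3 with Old 7 and Old_CP2 15 left out. Rxra, a nuclear receptor, rose by 0.33 ± 0.0507 (adjusted p = 0.00380), while Cyp26b1, an enzyme that breaks retinoic acid down, fell by 0.86 ± 0.168 on the log2 scale (adjusted p = 0.0109). Of the 4 tested factors that act before Hox genes in the hindbrain, 0 were called in Old against Young. At an unadjusted p under 0.05 (edgeR) there were 3 of the 4, where 21.4% of all tested genes were. The median log2 difference of the 4 was -0.458, against -0.00342 over all genes. All 7 genes of this list summed to 19.5 CPM in Old 7 and 23.5 in Old_CP2 15, the 2 lowest, and 23.8 to 37.35 in the other libraries. Cdx2 was at 0 in all 12 libraries.

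Markers of other brain regions were set beside the Hox values. The summed level of the 10 forebrain genes was lowest in Old 7 (315.9 CPM) and next lowest in Old_CP2 15 (363.2 CPM), against 394.3 to 474 in the other 10. The 12 genes of the hindbrain neuron list summed to 8.87 to 10.7 CPM in Young, 65.5 in Old 7 and 118.6 in Old_CP2 15, and 16.2 to 33.8 in the other 6 old libraries. Of these 12, 5 were highest in Old 7 and 7 in Old_CP2 15. None of the 12 was at 0 in Old 7, Old 9 or Old_CP2 15, while 1 to 3 were at 0 in each of the other 9 libraries, and Tlx3 was at 0 in all 4 Young libraries. The part of hindbrain tissue in the Hox values was not tested.

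Slc6a5, the glycine transporter of brainstem and spinal inhibitory neurons, was at 0.220 to 0.343 CPM in Young, 33.2, 1.34, 3.36 and 2.58 in Old, and 4.39, 3.08, 0.954 and 14.8 in Old_CP2. All 8 old libraries lay above Young, and the 2 highest were the 2 with the most Hox reads. Its log2 difference of Old minus Young was 5.21 ± 1.16 (edgeR, adjusted p = 0.0194) and 3.15 with Old 7 and Old_CP2 15 left out. The call was lost with limma voom (adjusted p = 0.226) and without Young 1, Young 4 or Young 5 (adjusted p = 0.0536 to 0.0586).

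Tph2 and Slc6a4, the enzyme and transporter of serotonin neurons, did not follow the Hox order. Tph2 was at 3.07 CPM in Old 7, below the 7.59, 10.2 and 4.10 of the other Old libraries, and at 49.6 in Old_CP2 15 against 2.18 to 5.52 in the others of its group. Slc6a4 was at 1.35 CPM in Old 7, 5.38, 6.60 and 2.42 in the other Old libraries, and 28.1 in Old_CP2 15. Young had 0.575 to 0.647 CPM of Tph2 and 0.0446 to 0.207 of Slc6a4.

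The cerebellum list was high in Old 7 in the main. It summed to 409.7 CPM there, 80.15 in Old_CP2 15 and 27.0 to 31.9 in the other 10 libraries. Gabra6, a receptor subunit of cerebellar granule cells, was at 78.9 CPM in Old 7, 10.8 in Old_CP2 15 and 0 to 0.1765 elsewhere. Of the 9 cerebellum genes with 10 or more reads, 8 were highest in Old 7 and 0 in Old_CP2 15. Old 7 and Old_CP2 15, with near-equal Hox levels, thus differed in their cerebellar and serotonin genes.

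Genes of the midbrain and its boundary with the hindbrain differed from the Hox members in reaching all old libraries, though the same 2 libraries had the highest sums. The midbrain list summed to 10.4 to 32.2 CPM in Young, 78.83 in Old 7, 104.2 in Old_CP2 15 and 63.9 to 73.6 in the other old libraries. The boundary list summed to 1.89 to 2.82, 46.68, 23.65 and 6.495 to 13.2 CPM in the same order. Of 13 midbrain genes, 8 rose in Old against Young and 0 fell, where 3.96% of all tested genes rose and 2.74% fell. With Old 7 and Old_CP2 15 left out, 8 rose and 0 fell, where 5.33% of all genes were called, 3.24% as higher and 2.08% as lower. Pax7, a transcription factor of the roof of the midbrain, ranged from 0.0518 to 0.312 CPM in Young, from 3.85 to 4.11 in Old and from 2.40 to 5.06 in Old_CP2. Its log2 difference of Old minus Young was 4.49 ± 0.350 (edgeR, adjusted p = 4.39e-05). Of 7 boundary genes, 5 rose and 0 fell, and 4 and 0 without the 2 libraries. Cnpy1 was at 26.6 CPM in Old 7, 6.58 in Old_CP2 15 and 0.78 to 1.58 in the other old libraries, and En2 at 14.5, 7.82 and 2.87 to 5.21. Of 9 hindbrain neuron genes tested, 4 rose and 0 fell, and 5 of 8 rose without the 2 libraries. In Old_CP2 against Old, 0 genes of the hindbrain, midbrain, boundary and cerebellum lists were called. The motor neuron factor Mnx1 was at 0.0248 CPM or less in all 12 libraries. The 6 genes of its list summed to 13.63 CPM in Old 7 and 13.14 in Old_CP2 15, against 4.13 to 9.69 in the other libraries. Of the 4 tested, 1 rose in Old against Young (Calca, edgeR, adjusted p = 0.0285) and 0 fell. The Calca call was lost without Young 1, Young 4, Young 5 or Old 7 (adjusted p of up to 0.0781).

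**Figure D5:**
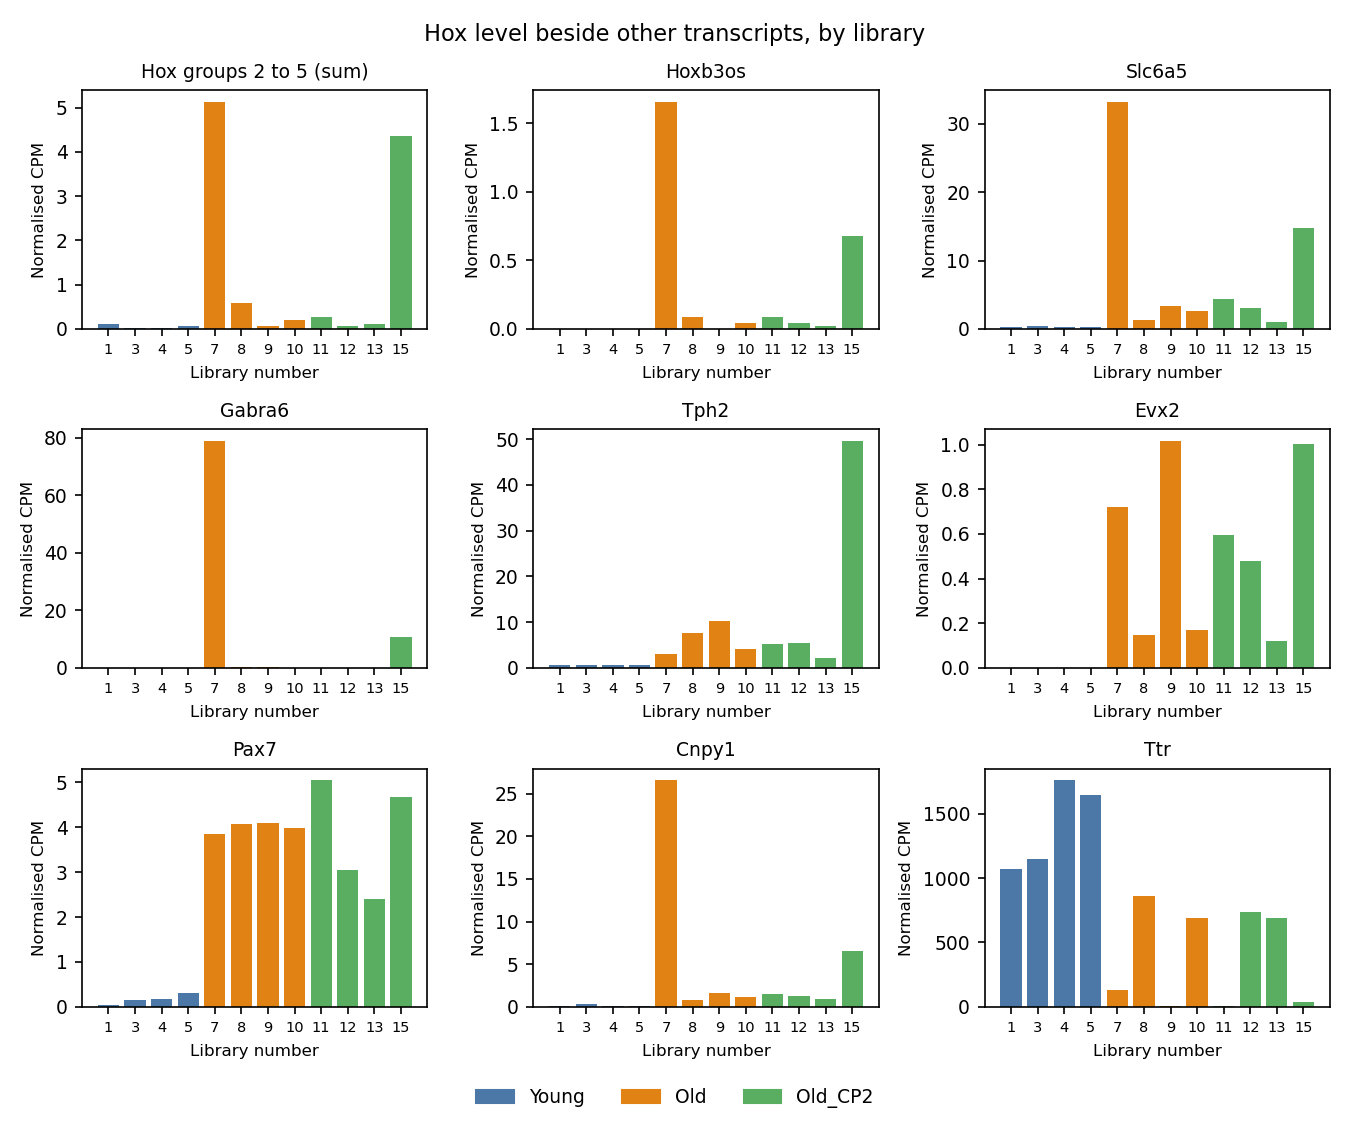
Normalised CPM by library (bars, coloured by group) of the summed Hox genes numbered 2 to 5 and of 8 other transcripts, each panel with its own axis from 0. Exons of Hoxb3os overlap those of Hoxb3 and Hoxb2. Hoxb3os, Slc6a5, Gabra6 and Cnpy1 are highest in Old 7 and Old_CP2 15 as the Hox sum is; Tph2 is highest in Old_CP2 15 alone, Evx2 and Pax7 stand in all 8 old libraries, and Ttr is low in 4 old libraries.

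Choroid plexus RNA varied between libraries in its own way. The summed list ran from 1243 to 1998 CPM in the Young libraries, from 33.7 to 987 in the Old ones and from 30.05 to 848 in those with CP2. Ttr, its main transcript, was low in Old 7 and Old_CP2 15 but also in Old 9 and Old_CP2 11, where the Hox members numbered 2 to 5 had 6 and 25 reads. Its part in the Hox values was not tested.

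Markers of vessels, meninges and blood were set beside them as well. The 8 genes of pericytes and smooth muscle summed to 204.5 CPM in Old_CP2 15, against 149.7 to 174.8 in the others of its group, 121.1 to 137.9 in Old (123.7 in Old 7) and 135.9 to 171.5 in Young. In Old_CP2 15 were the highest values of 6 of these 8 genes and of 5 of 8 endothelial genes, whose sum was 196.9 CPM there and 151.9 to 186.8 in the other 11 libraries. Over all tested genes, 3.96% rose and 2.74% fell in Old against Young, and 3.24% and 2.08% with Old 7 and Old_CP2 15 left out. Of 9 genes of meningeal fibroblasts, 3 rose in Old against Young and 0 fell, and 1 and 0 with Old 7 and Old_CP2 15 left out. Their sum was 131.2 to 221.6 CPM in Young, 153.8 to 222.8 in Old (209.3 in Old 7) and 158.5 to 210.2 in Old_CP2. The 5 red blood cell genes summed to 59.2 to 90.97 CPM in Young, 81.6 to 147.7 in Old, highest in Old 7, and 227.6 to 443 in Old_CP2. Of these 5, 2 rose in Old_CP2 against Old and 0 fell (0.0443% of all genes were called), and 3 and 0 without the 2 libraries (0.141% of all genes). Of 7 tested leukocyte genes, 3 rose and 1 fell in Old against Young, and 3 and 1 without the 2 libraries. The part of these cells in the Hox values was not tested.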

How the data were processed

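The submitters deposited 1 table of 43346 genes with a gene count and an RPKM value per library. Per the file headers, the count was made by the authors and is not normalised, and the RPKM value was also made by the authors. RPKM values were used only in a check: the counts summed to 79.86 to 85.37% of the total behind them. Per the submitters' processing notes, bcl2fastq, TopHat, and featureCounts of Subread were used on mm10, with versions not given in the sources used here. Per the labels' protocols, the kit does not mark strand.

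The gene test was that of edgeR 4.0.16 (R 4.3.3): filterByExpr, TMM, a quasi-likelihood fit over all 12 libraries with the group as term, 2-sided tests and Benjamini-Hochberg adjustment over 22553 genes, called under 0.05. Normalised CPM are counts over TMM-scaled library sizes, and counting intervals are exact at 95%. On simulated Old_CP2 against Old counts with 22250 genes tested, 84% of 2-fold and 96% of 4-fold changes were found, with 1.64% false calls. The changes were placed only in genes above a minimum mean read count that no Hox member reached. These shares therefore do not cover Hox genes. Alternatives were RLE factors, no filter, DESeq2 1.42.0, limma 3.58.1 voom, 2 groups only, each library left out and, added after seeing the data, Old 7 and Old_CP2 15 left out, also with DESeq2 and for ratios of reads.

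The members and the gene lists were chosen with earlier results of these data known. Because fewer than 8 members passed the filter, the 8 with the most reads were described in full, and other lists are given by up to 4 genes of smallest p in Old against Young and some defining markers; some genes of this rule are not reported here. Positions are those of the deposited table, and 38 of 39 equal those of GENCODE vM21. The replicates share no number across groups, so no block was fitted.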

Additional observations from a re-analysis of the deposited data

Results flagged for a closer look

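Dixon's criterion was applied to the 4 libraries of each group, 45 sets of values in all, and 18 held a library far from the others. A chance rate of about 1 in 20 holds only for normally distributed values, and several of these sets hold few reads. A gene with reads in only 1 library of a group is always flagged, as Hoxb2 was in Young 5. The genes and lists were also chosen with earlier results known. The 18 of 45 therefore cannot be set against a chance rate. Most of the 18 are Old 7 and Old_CP2 15, and they are not independent, since the same libraries and reads enter several of them.

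The summed Hox level was 5.705 CPM in Old 7 (0.3101 to 0.8971 in the other Old libraries) and 5.044 CPM in Old_CP2 15 (0.4121 to 0.5516 in the others of that group).

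Among single genes, Old 7 stood apart for Hoxb3 (1.349 CPM), Hoxb2 (0.6854 CPM), Hoxc4 (0.4091 CPM) and Hoxd3 (0.2653 CPM). Old_CP2 15 stood apart for Hoxb5 (0.9047 CPM), Hoxb4 (0.4957 CPM), Hoxc4 (0.4214 CPM), Hoxb2 (0.2974 CPM) and Hoxd3 (0.2231 CPM). Young 5 stood apart for Hoxb2 at 0.01115 CPM, which is 1 read against 0 in the other Young libraries.

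Of the lists, the Hox noncoding transcripts summed to 3.195 CPM in Old 7 and 1.859 CPM in Old_CP2 15. The cerebellum list was at 409.7 CPM in Old 7 and 80.15 CPM in Old_CP2 15. The boundary list was at 46.68 CPM in Old 7, and the hindbrain neuron list at 118.6 CPM in Old_CP2 15.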

How the results depend on the processing

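The count of called Hox members stayed at 0 in the 3 comparisons with RLE factors, no filter, limma voom, 2 groups only, Old 7 and Old_CP2 15 left out, and each library left out (0 to 0, with 2 to 5 members tested). DESeq2 called 1 in Old against Young, and 0 in each comparison with Old 7 and Old_CP2 15 left out, where it gave an adjusted p to 0, 2 and 2 members. The summed Hox level ranged from 0.5725 to 2.371 CPM in Old, 0.4876 to 2.032 in Old_CP2 and 0.3484 to 0.4039 in Young when each library was left out. Over the 16 members that overlap no other gene, the Young level was 0.1782 CPM. A sum over fewer genes cannot exceed the full sum, so the lower value by itself shows no effect of overlap. With each library left out, the log2 difference of Hoxd1 in Old_CP2 against Young ranged from -0.0737 to 0.326, and was -0.0112 without Old 7 and Old_CP2 15. These values lie on both sides of 0 with no adjusted p under 0.763, and the cause was not tested. No paired analysis was possible because the groups share no replicate numbers. Depth limits the members with few reads, which most are, and Hox genes at 0 in a library may be present at up to 3 reads.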
